A study of Mus musculus with 2 samples.

Results

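The fatty acid desaturase genes were examined in brown fat from between the shoulder blades of wild-type mice (WT) and of a double knockout (DKO) with Rora, a nuclear receptor gene, among its deleted genes (RORa-/-). Members were the probe spots that carry the gene name Scd1, Scd2, Scd3, Scd4, Fads1, Fads2 or Fads3 in the array files. That rule found 5 of the 7 genes, out of 15938 genes with a symbol, through 6 of 41174 probes: 1 probe each for Scd2, Scd3, Scd4 and Fads2, and 2 for Fads3. No probe carries the name Scd1 or Fads1. The transcript accessions beside 2 other probes lead to these genes, one filed under the clone name 7530417E14 and described as inferred stearoyl-CoA desaturase 1, the other filed under AB072976 and described as the delta-5 desaturase D5D. Both were read from the file's annotation, lie outside the naming rule and are counted apart from its 6 probes.

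The mice were males on the C57BL/6 background, 2 to 3 months old (8 to 12 weeks in another label), with 4 per genotype, and tissue was taken near circadian time 20. RNA of both genotypes was hybridised together on each of 2 Agilent mouse arrays in a dye swap; below, the Cy5 array is the one on which DKO RNA carried Cy5, and the Cy3 array the one on which it carried Cy3. The sources used here do not give how the mice of a genotype were combined, nor whether extracts were shared between arrays, so each genotype counted as 1 replicate and no test was made. Ratios are given on the log2 scale, DKO over WT, with the mean and SD over n = 2 arrays. What that SD holds besides dyes and measurement is not known, and it is not taken as the spread between mice. In whole tissue, fewer cells of a type and less RNA per cell cannot be told apart.

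Desaturases put double bonds into fatty acyl chains, using electrons that NADH passes through cytochrome b5 reductase and cytochrome b5. The stearoyl-CoA desaturases, encoded by the Scd genes, make oleate and palmitoleate from saturated chains, and these monounsaturated chains are preferred for storage in triglyceride. The Fads genes encode front-end desaturases, of which Fads2 and Fads1 act in turn to make long polyunsaturated chains from dietary precursors. In fat and liver, Scd1 and both of these Fads genes are textbook targets of the sterol regulatory element binding protein SREBP-1c, and Scd1 also responds to the liver X receptors.

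The Scd genes lie side by side on mouse chromosome 19, and so do the Fads genes elsewhere on that chromosome. Of the 7 genes, 4 matched a promoter in the RefSeq table for GRCm38.p6 (Scd3, Scd4, Fads2 and Fads3). The 250 bases before the start are shown for Fads3, the Fads gene with the lower ratio in DKO, and for its neighbour Fads2, whose ratio lay nearer 0. The Fads3 stretch lies on the plus strand at chr19:10041298-10041547 and the Fads2 stretch on the minus strand at chr19:10101504-10101753. Both are written 5′ to 3′ on the gene's strand, and capitals mark matches to the NF-Y box, CCAAT, on either strand.
Fads3: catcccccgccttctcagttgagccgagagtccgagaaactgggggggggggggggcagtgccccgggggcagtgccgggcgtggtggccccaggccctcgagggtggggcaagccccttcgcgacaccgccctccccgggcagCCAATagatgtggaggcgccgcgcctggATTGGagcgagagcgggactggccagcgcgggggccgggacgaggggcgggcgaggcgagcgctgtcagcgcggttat
Fads2: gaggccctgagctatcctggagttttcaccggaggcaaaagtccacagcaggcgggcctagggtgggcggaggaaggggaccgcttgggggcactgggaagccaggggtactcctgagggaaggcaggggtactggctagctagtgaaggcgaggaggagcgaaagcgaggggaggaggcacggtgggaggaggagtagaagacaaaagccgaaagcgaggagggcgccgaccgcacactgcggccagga
The Fads3 stretch held 2 NF-Y boxes, beginning 106 and 78 bases before the start, the second on the opposite strand. The stretches of Fads2, Scd3 and Scd4 held none, and 33.8% of 32851 mouse promoters held at least 1. None of the 4 stretches held AGGTCA (a core site of nuclear receptors, in 14.0% of promoters), CACGTG (the E-box, in 6.02%), TATAAA (the TATA box, in 12.4%) or CACNCCAC (a core of the sterol regulatory element, in 5.29%) on either strand. The Fads3 stretch was 74.4% G and C and the Fads2 stretch 64.8%, against 52.4% for Scd3, 49.6% for Scd4 and a median of 52.4% over all promoters. A match describes these letters only.

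Of the probe spots, 77.6% to 85.4% were well above background in each genotype on each array, and 32424 probes were measured, meaning well above background in at least 1 genotype on both arrays. Rora, which bears on the labels, read −0.38 ± 0.04 and −0.47 ± 0.10 on its 2 probes, and −0.96 ± 0.07 and −1.52 ± 0.14 with the scanner software's ratios. The sources used here do not say whether these probes lie inside the deleted part. All 8 brown adipocyte markers were measured, with a median of 0.36. By the rule below 2 were called higher in DKO, against 0.17% of measured genes. Of these 2, 1 was Elovl3, which is counted again in the list of saturated acyl-CoA supply. Each array gave a positive ratio for 5 of the 8. Cidea, whose probe was saturated, was the 1 marker with a negative ratio on each. Ucp1, chosen outside the rule for naming genes, read 0.73 ± 0.00, while Prdm16 read −0.08 ± 0.29 and Cox8b 0.01 ± 0.30. All 6 desaturase probes and both accession-matched probes were well above background in both genotypes on both arrays, and none was saturated.

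Scd2, Scd1 and Fads3 were lower in DKO on both arrays, while Scd3, Scd4 and Fads1 had ratios at 0 and Fads2 was lower on 1 array. Scd2 stood at 53.3% of WT, Fads3 at 56.9% on its brighter probe, and Scd1 at 67.7%. Processed signals below are the software's background-subtracted, dye-normalised intensities, to be compared between genotypes of 1 probe and not between probes.

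Scd2, the desaturase form best known from brain and from developing tissues, gave the lowest mean ratio with the main processing. The brighter Fads3 probe was lower than Scd2 with the software's ratios (−1.01 against −0.92), with the deposited value table, by under 0.01 with an offset of 16, and on the Cy3 array alone (−0.88 against −0.71). The processed signal of Scd2 was 61196 in WT and 28512 in DKO on the Cy5 array. On the Cy3 array it was 55576 in WT and 33229 in DKO. Both DKO signals lay below both WT signals. The share of all measured probes separated in this way was not worked out, here or for the probes below. The log2 ratios of Scd2 were −1.10 and −0.71, with a mean of −0.91 ± 0.28, or 1.87-fold lower in DKO. Only 15 of the 32424 measured probes had a lower mean, and 3 of the 687 with an average log2 intensity within 1 of it.

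Scd1, the main stearoyl-CoA desaturase of fat and liver, was read by the accession-matched probe alone. Its processed signal was 548365 in WT and 347126 in DKO on the Cy5 array, and 519230 in WT and 388736 in DKO on the other. Both DKO signals lay below both WT signals here too. The log2 ratios were −0.68 and −0.44, with a mean of −0.56 ± 0.17, or 1.48-fold lower in DKO. Its average log2 intensity of 14.96 put it among the brightest probes, and only 70 measured probes lay within 1 of it, of which 2 had a lower mean ratio. With the software's own ratios its mean was −0.54 ± 0.17.

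Scd3, known from skin and its glands, and Scd4, known from heart, had nearly equal signals in both genotypes. Scd3 read 3105 in WT and 3055 in DKO on the Cy5 array, then 2704 in WT and 2698 in DKO on the Cy3 array, a mean log2 ratio of 0.00 ± 0.01. Scd4 read 1542 in WT and 1539 in DKO, then 1266 in WT and 1286 in DKO, a mean of 0.02 ± 0.01. For both, the arrays differed more from each other than the genotypes did on either array. Their mean spot signals lay between 141 and 358 over local backgrounds of 56 to 73, so these are dim probes, and a ratio at 0 from a dim probe does not show that it reads its own transcript. The Scd transcripts are closely related, probe sequences were not used here, and signal shared between them was not tested. A further probe described as Scd4 was not well above background in either genotype on either array, so it has no ratio.

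**Figure D1:**
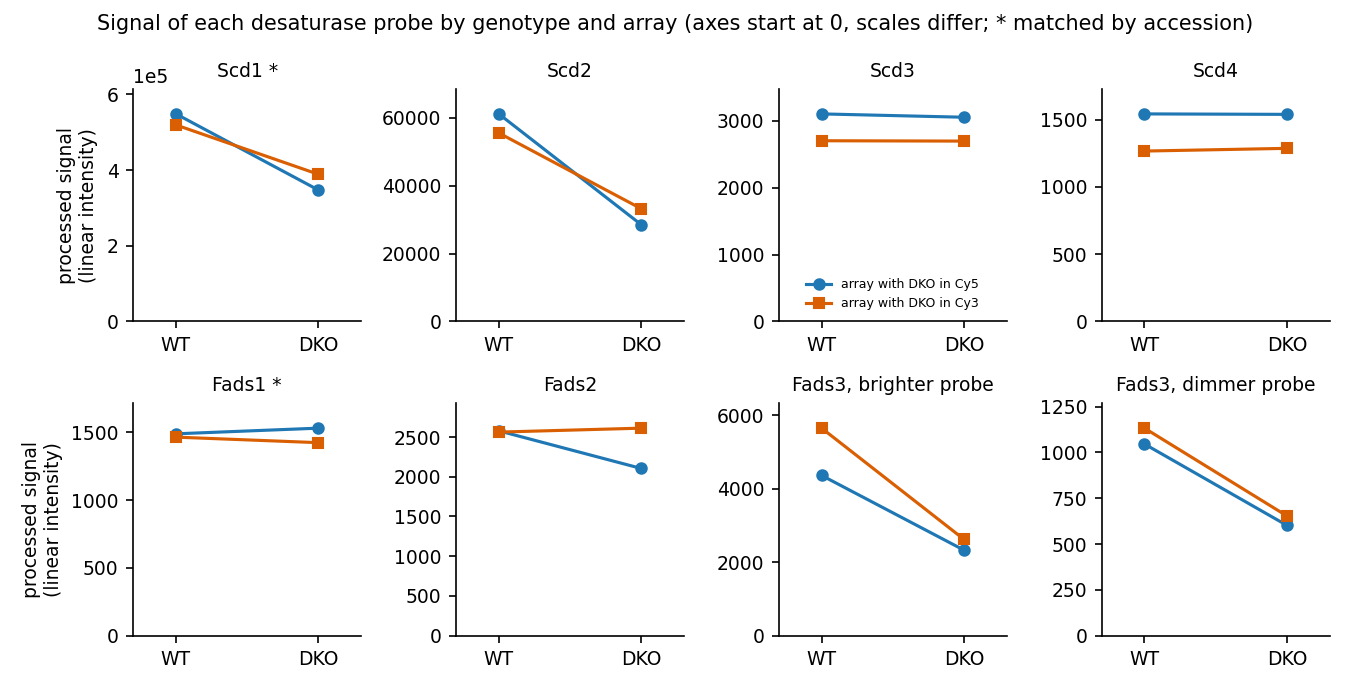
Processed signal (linear intensity, from 0, with a scale for each panel) of the 8 desaturase probes in WT and DKO, 1 line per array; an asterisk marks the probes matched by accession. The lines drop from WT to DKO for Scd1, Scd2 and both Fads3 probes on both arrays and run level for Scd3 and Scd4.

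Among the Fads genes, Fads3 was lower on both of its probes, and the 2 genes of polyunsaturated fatty acid synthesis were near 0. Fads3, whose enzyme desaturates sphingoid bases of ceramides, read 4362 in WT and 2326 in DKO on its brighter probe on the Cy5 array, and 5650 in WT and 2619 in DKO on the other. The log2 ratios were −0.74 and −0.88, with a mean of −0.81 ± 0.10, or 1.76-fold lower in DKO. Of the measured probes, 26 had a lower mean. The dimmer Fads3 probe read 1046 in WT and 602 in DKO, then 1132 in WT and 653 in DKO, with log2 ratios of −0.42 and −0.37 and a mean of −0.39 ± 0.03. On each probe both DKO signals lay below both WT signals, which are 2 readings of 1 replicate per genotype. This separation was not counted over all measured probes.

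The 2 Fads3 probes were closer with the software's ratios, which carry no added offset. They were −1.01 ± 0.14 for the brighter probe, or 2.01-fold lower in DKO, and −0.80 ± 0.00 for the dimmer one. The dimmer probe's mean spot signals were 104 to 141, over local backgrounds of 56 to 71, where an offset of 50 shrinks a ratio most. Those of the brighter probe were 219 to 488 over local backgrounds of 57 to 73, so its ratio depends on the offset too. The brighter probe's mean moved between −1.01 and −0.70 over the other ways of processing both arrays.

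Fads2, the enzyme of the first step towards long polyunsaturated chains, differed between the arrays. It read 2578 in WT and 2104 in DKO on the Cy5 array, but 2562 in WT and 2612 in DKO on the other. The log2 ratios were −0.21 and 0.03, with a mean of −0.09 ± 0.17, less than the spread between arrays. Fads1, which acts after Fads2 and was read by the accession-matched probe, gave 1489 in WT and 1530 in DKO, then 1464 in WT and 1423 in DKO. Its mean was −0.01 ± 0.02 and its sign changed between the arrays. Mean spot signals of Fads2 and Fads1 lay between 151 and 263 over local backgrounds of 56 to 74. These are dim probes too, so the limit given for Scd3 and Scd4 holds for them.

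**Figure D2:**
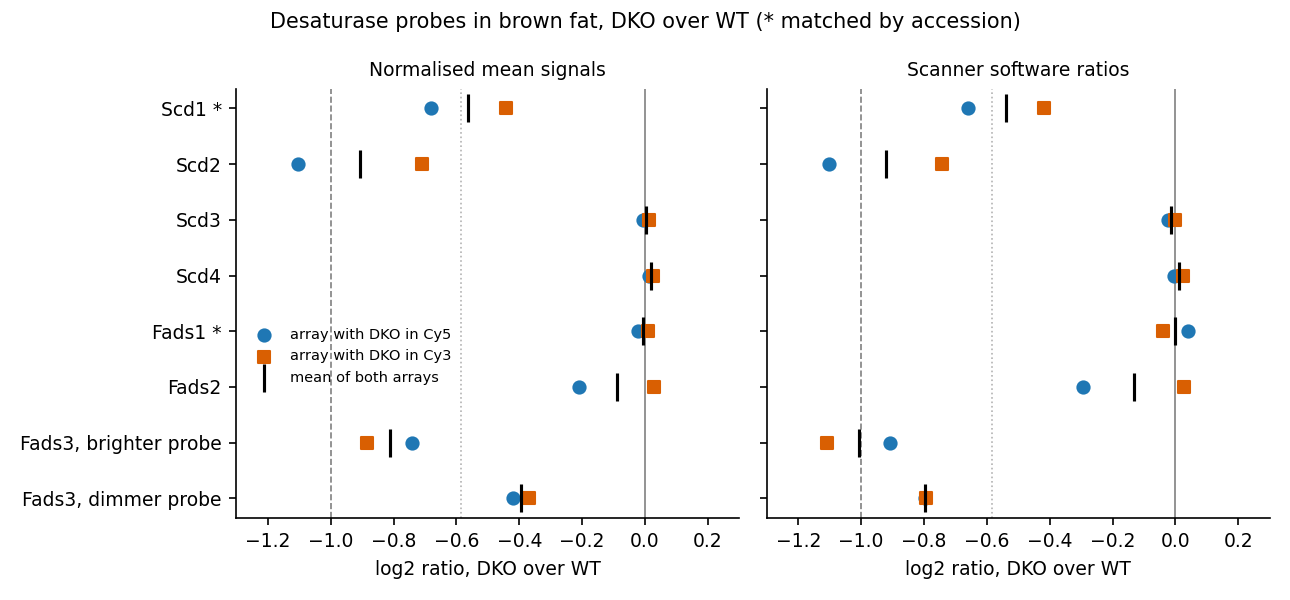
Log2 ratio of DKO over WT for each desaturase probe on both arrays (points) and their mean (bars), from normalised mean signals (left) and from the scanner software (right); the dashed line is 2-fold lower, the dotted line 1.5-fold lower, and an asterisk marks probes matched by accession. Scd2, both Fads3 probes and Scd1 lie left of 0 on both arrays, and the brighter Fads3 probe reaches the 2-fold line only on the right.

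None of the 6 probes met the size rule for a call, a mean of at least 2-fold with at least 1.5-fold on each array; among all measured probes 0.0216% met it as lower in DKO and 0.0987% as higher. At a mean of 1.5-fold with the same direction on both arrays, 2 of the 6 were lower, Scd2 and the brighter Fads3 probe, against 0.259% of measured probes, and none was higher, against 0.352%. Scd1, at 1.48-fold, was just short of this size. With the software's ratios, the brighter Fads3 probe met the 2-fold rule, which 0.102% of measured probes did as lower, and 3 of the 6 probes, with the dimmer Fads3 probe added, were lower at 1.5-fold, against 0.583%. Both Fads3 probes read 1 gene, so these counts stand for Scd2 and Fads3 alone.

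The authors' software also gave each log ratio an error that covers measurement on a single array. In log2 units this error was 0.18 and 0.17 for Scd2 on its 2 arrays, 0.18 and 0.19 for the brighter Fads3 probe, and 0.24 and 0.23 for the dimmer one. It was 0.17 on both arrays for Scd1 and between 0.17 and 0.19 for Scd3, Scd4, Fads1 and Fads2. The deposited p-values were under 0.01 on both arrays, with the lower value in DKO, for Scd2 and both Fads3 probes (3 of 6), against 0.423% of measured probes; the same rule was met with a higher value by none of the 6 and by 0.493% of measured probes. For Scd1 the deposited p was 0.00011 on the Cy5 array and 0.012 on the Cy3 array.

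The dye exchange allowed the mean ratio to be set beside the difference between the arrays divided by 2, here called the dye part. With 1 replicate per genotype, the mean can also hold differences between mice or RNA preparations. The dye part can also hold other differences between the arrays. For Scd2 the dye part was 0.20 in size against a mean of −0.91, for Scd1 0.12 against −0.56, and for the brighter Fads3 probe 0.07 against −0.81. For Fads2 the dye part, 0.12, was larger in size than the mean of −0.09. In order of their means, Scd2 and Fads3 differed by less than the SD of Scd2, and Scd1 followed. Fads2, Fads1, Scd3 and Scd4 came next, between −0.09 and 0.02; of these neighbours only Scd3 and Scd4, at 0.00 and 0.02, differed by more than their SDs of 0.01. The 6 probes of the naming rule read Fads3 through 2 probes and leave out Scd1 and Fads1. Their median was −0.24, with −0.31 on the Cy5 array and −0.18 on the other, against 0.00 over all measured probes. With the software's ratios it was −0.46. Of the 6, 3 lay below 0 on both arrays (Scd2 and both Fads3 probes), as did 17.8% of measured probes. Above 0 on both lay 1, as did 19.5%. Over all measured probes the ratios of the 2 arrays had a Pearson correlation of −0.02, and 20335 of 32424 had opposite signs.

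**Figure D3:**
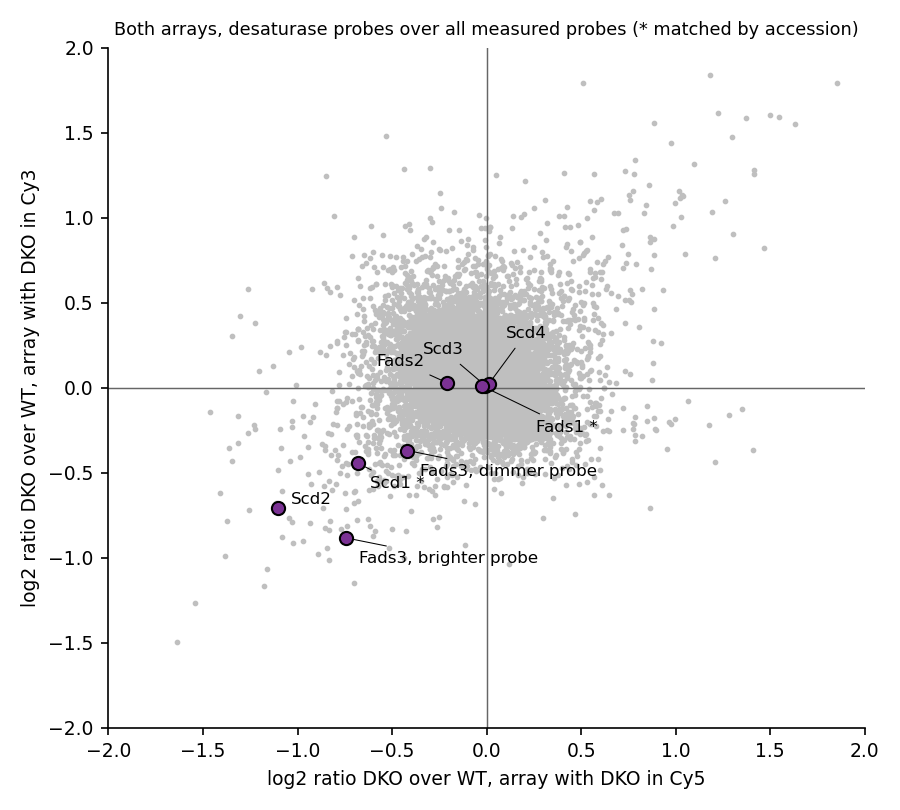
Log2 ratio of DKO over WT on the Cy5 array (horizontal) and on the Cy3 array (vertical) for the 32424 measured probes (grey, 5 beyond the axes) and the 8 desaturase probes (purple, asterisk for those matched by accession). Scd2, Scd1 and both Fads3 probes lie in the lower left, outside the dense cloud or at its edge, and the other 4 lie in the cloud near 0.

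The genes that work beside the desaturases were grouped into 6 lists, with 1 probe per gene. At the 2-fold rule 0.0496% of 14099 measured genes with a symbol were lower in DKO and 0.17% were higher. Counted per gene, the 7 desaturases had no call and a median of −0.09, with −0.21 on the Cy5 array and 0.01 on the Cy3 array.

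Most measured genes that supply saturated acyl-CoA read lower in DKO. Acaca, Acacb and Acsl5 matched no probe in use. Of 11 measured genes 1 was called lower and 1 higher, 8 lay below 0 on both arrays, and the median was −0.35, with −0.62 on the Cy5 array and −0.18 on the other. Acss2, which makes acetyl-CoA from acetate, read −1.19 ± 0.28, and Elovl3, an elongase of brown fat, read 1.02 ± 0.02. Short of a call, Acly, which splits citrate into acetyl-CoA, read −0.99 ± 0.38, and Me1, the malic enzyme that supplies NADPH, read −0.91 ± 0.17. With the software's ratios 2 genes were called lower, Acly being the second, while the Cy3 array alone gave 0 and the Cy5 array alone gave 3. The call of Elovl3 was lost with an offset of 100. The fatty acid synthase probe, counted among the 11, was saturated, so its ratio is not given. The 1.5-fold size was reached downwards by 4 of the 11, against 0.39% of measured genes, and upwards by 1, against 0.56%.

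The electron carriers and the other desaturases and hydroxylases showed no common direction. Of the 7 measured genes of the cytochrome b5 chain none was called, and the median was 0.04. Cyb5b, the cytochrome b5 of the outer mitochondrial membrane, read −0.51 ± 0.09, and Cyb5a, the form of the endoplasmic reticulum that serves the desaturases, read 0.24 ± 0.20. Among the 6 measured other lipid desaturases and hydroxylases the median was 0.00, with the sterol enzymes Msmo1 at 0.14 ± 0.15 and Sc5d at −0.04 ± 0.12. Degs2 was not measured and Peds1 matched no probe in use.

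Elongation and handling of polyunsaturated chains, where Acsl6 and Elovl4 were not measured, had no call among 13 measured genes and a median of 0.03. Hacd2, a dehydratase of the elongation cycle and among its brightest members, read 0.67 ± 0.13. Elovl5, the elongase that works between the Fads2 and Fads1 steps, read −0.72 ± 0.18 and was chosen here after its value was seen. Genes that use oleoyl-CoA in lipid assembly had no call among 11 and a median of 0.01, with Dgat2 at 0.32 ± 0.25 and Agpat2 at −0.07 ± 0.74. With the software's ratios 1 of the 11 was called higher, Gpat4, a glycerol-phosphate acyltransferase gene, at 1.55 against 0.68 with the added offset, and its relative Gpam read 0.99 against 0.52. Both were chosen after their values were seen.

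Regulators of desaturase transcription had no call among 19 measured genes, 5 below 0 on both arrays, 5 above 0 on both, and a median of 0.04. The 2 brightest were Srebf1, which encodes SREBP-1, at −0.48 ± 0.29, lower on both arrays at −0.69 and −0.28, and the adipocyte receptor gene Pparg at −0.02 ± 0.00. Mlxipl, the carbohydrate response factor, read −0.51 ± 0.43, and Nr1h3, a liver X receptor gene, read 0.27 ± 0.46 with opposite signs on the arrays. Ppara, the gene of peroxisome proliferator activated receptor alpha, was higher on both arrays at 0.63 and 0.58, with a mean of 0.61 ± 0.04. It was the 1 gene of the 19 to reach the 1.5-fold size upwards, against 0.56% of measured genes. Downwards 0 reached it, against 0.39%. Mlxipl, Nr1h3 and Ppara were chosen after their values were seen. Mbtps2 was not measured and Rxra matched no probe in use.

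**Figure D4:**
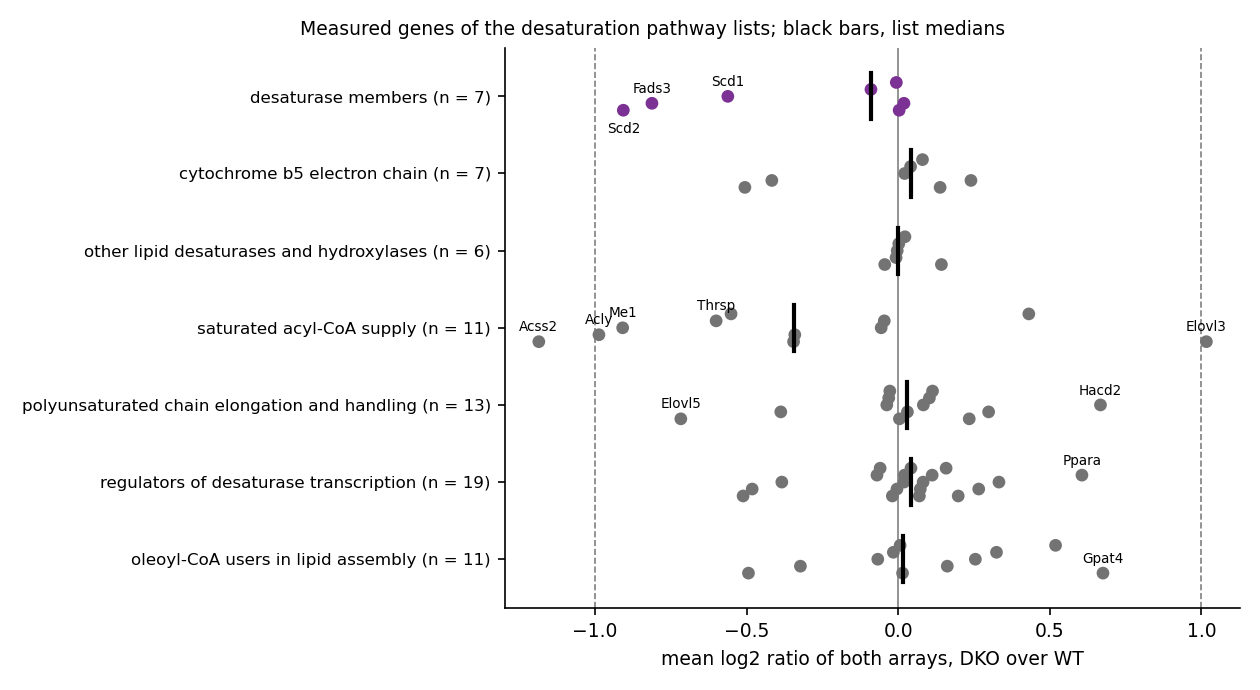
Mean log2 ratio of DKO over WT (horizontal) for the measured genes of the 7 desaturases (purple) and of the 6 lists around them (grey), with black bars at the list medians and dashed lines at 2-fold. The list of saturated acyl-CoA supply has the lowest median, −0.35, and the other grey lists have medians between 0.00 and 0.04.

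The 5 measured genes whose pair of array ratios lay nearest to that of Scd2, the brightest probe under the naming rule, were Bmyc, Bhlhe40, Me1, Acly and Dhx32, at distances of 0.08 to 0.17 in log2 units over 2 arrays. Me1 read −1.03 and −0.79 on the arrays and Acly −1.25 and −0.72. With 2 arrays this likeness says only that the ratios were near each other.

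The 3 protein-coding genes on either side of each cluster, by RefSeq gene order, had mean ratios between −0.10 and −0.03 where they were measured. Some of these means came from opposite signs: Fth1 read 0.31 and −0.51 on the arrays, and Rab3il1 0.13 and −0.22. Beside the Scd cluster only Ndufb8 was measured, at −0.10 ± 0.10. Beside the Fads cluster Fth1 read −0.10 ± 0.58, Best1 −0.05 ± 0.00, Rab3il1 −0.05 ± 0.25 and Fen1 −0.03 ± 0.07, and none was called.

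Skeletal muscle markers stood higher in DKO beside these results. All 9 measured of 10 listed lay above 0 on both arrays, as did 2703 of 14099 measured genes. Of the 9, 2 were called higher, against 0.17% of measured genes, and the median was 0.84. The 1.5-fold size was reached upwards by 8 of the 9, against 0.56%. The summed processed signal of the 9 was 131990 in WT and 204156 in DKO on the Cy5 array. On the other it was 138926 in WT and 264386 in DKO. The part of muscle RNA in the desaturase ratios was not tested. General adipocyte markers had a median of 0.00 over 8 measured genes, with medians of −0.25 on the Cy5 array and 0.20 on the Cy3 array. Of the 8, 1 was called lower, against 0.0496% of measured genes. Fabp4, the brightest probe of that list, was saturated, so no summed signal is given. Schwann cell and nerve markers, listed because Scd2 is abundant in nerve tissue, had a median of −0.04 over 7 genes, 4 of them below 0 on both arrays, with Mag at −0.13 ± 0.07 and S100b at 0.14 ± 0.36. Skin and sebaceous markers, listed because of Scd3, had a median of 0.01 over 7, macrophage markers 0.02 over 7 and liver markers 0.02 over 7. No gene of these last 4 lists was called, and their part in the result was not tested.

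**Figure D5:**
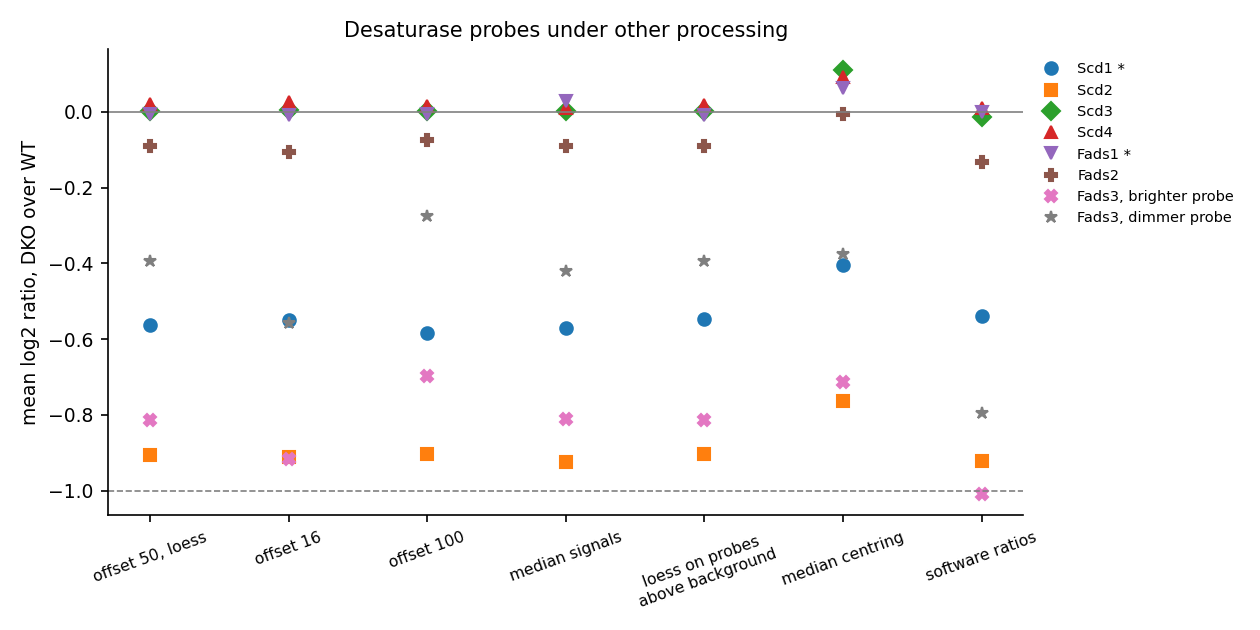
Mean log2 ratio of DKO over WT for the 8 desaturase probes (symbols, asterisk for those matched by accession) under 7 ways of processing the same spots (horizontal). Scd2 stays between −0.93 and −0.76, while the dimmer Fads3 probe moves from −0.28 with an offset of 100 to −0.80 with the software's ratios.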

How the data were processed

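The scans were read by the authors with Agilent Feature Extraction 7.5, per the submitters' processing notes. Each deposited spot file gives linear intensity (mean signal, local background, processed signal) and a log10 ratio of red over green with its error and p-value, as its header names them. The deposited value table of the series gives log2 ratios with a median of 0 on each array; 40962 of 41001 and 41101 of 41141 of them lay within 0.001 of the scanner ratios, so scale and direction were settled by that match.

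Mean signals were corrected with normexp (offset 50) and loess-normalised within each array (limma 3.58.1, R 4.3.3), with a weight of 0 for control spots. Ratios of the Cy3 array had their sign turned before averaging. Outlier-marked spots (171 and 29) were left out. Well above background means 2.6 background SDs, per the file headers. Probes were named through RefSeq (GRCm38.p6): 11450 through their own accession, 6168 through another listed one, 2296 through the symbol and 938 through a former symbol, which left 20322 unnamed. A gene in a list was read by its brightest measured probe. Named genes were every member, called genes of each list or else its 2 brightest, the cluster neighbours and the 5 nearest to Scd2; 1 gene that this rule names is not reported here. The members and lists were chosen with earlier results of these data known. The ratio step was tested on simulated data with changes placed in brighter spots only. That test does not cover the ratios of dim probes such as the dimmer Fads3 probe. Protein comparison was not done here. Median signals over backgrounds were 107 to 130 over 57 to 72, and 2 arrays limit the precision. Alternatives covered offset, ratio source, signal column, normalisation, filters, size thresholds and single arrays. Scripts ran in Python 3.11.15 with pandas 2.3.3.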

Additional observations from a re-analysis of the deposited data

How the results depend on the processing

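Scd2, Scd1, Fads2 and both Fads3 probes kept a mean below 0 in all 8 other ways of processing both arrays. Scd2 ranged from −0.93 to −0.76, Scd1 from −0.58 to −0.40, Fads2 from −0.13 to −0.00, the brighter Fads3 probe from −1.01 to −0.70 and the dimmer from −0.80 to −0.28; Scd3, Scd4 and Fads1 stayed between −0.01 and 0.11. The count of the 6 probes called lower was 0 in the setting reported and 1, the brighter Fads3 probe, with software ratios or the deposited value table. It was 2 at a mean of 1.5-fold. With 1 array alone it spanned 0 to 1, and the 1 was Scd2 on the Cy5 array. Adding the accession-matched probes, chosen after seeing the data, left it at 0, or 1 with the software's ratios. None was called higher in any setting run. The median of the 6 probes was −0.46 with software ratios or the value table, and −0.31 to −0.18 with 1 array alone. The median of the saturated acyl-CoA supply list was below 0 in all 13 other settings (−0.62 to −0.18); the desaturase, cytochrome b5, polyunsaturated, regulator and oleoyl-CoA user medians each kept their sign in 12 of 13, and that of the other desaturases, near 0, in 6. Median centring moved the median of all probes to 0.04. No paired analysis was possible because the result comes from no test. The added offset shrinks the ratios of dim probes, which limits the dimmer Fads3 probe most.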
